A study of Homo sapiens with 2 samples.

Results

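The subunits of the 5 oxidative phosphorylation (OXPHOS) complexes were examined in NK92 cells with and without an antibody against transferrin receptor 1, the receptor through which cells take up iron bound to transferrin. Members were taken by gene name from the protein-coding genes of the count table. They were the structural subunits with symbols beginning NDUFA, NDUFB, NDUFC, NDUFS, NDUFV, SDH, UQCR, COX4 to COX8 and ATP5F, ATP5M or ATP5P, with CYC1, and the 13 proteins encoded in mitochondrial DNA. The rule found 101 of 46427 listed genes, of which 88 lie in the nucleus and 13 in mitochondrial DNA. At least 20 counts summed over both libraries were found for 94 members, 81 of them nuclear, and 7 did not reach that minimum.

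OXPHOS couples the flow of electrons to the pumping of protons across the inner mitochondrial membrane, and ATP synthase uses the proton gradient to make ATP. Complexes I, III, IV and V are built from proteins of both genomes, while complex II is wholly nuclear. Electrons pass along iron-sulfur clusters and hemes, so a subset of subunits carries the iron that the chain depends on.

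NK92 is a cell line of human natural killer origin. Exposure to PPMX-T003, the antibody against transferrin receptor 1, lasted 6 h at 10 µg/mL. The control dish was kept for the same time without it. The 2 dishes came from an equal split of cells held beforehand for 18 h in Artemis-Medium 1 with 2% human serum. Polyadenylated RNA was sequenced as 1 library per condition, so no difference given here has a replicate check. The control library held 46766416 counts and the PPMX-T003 library 43178462.

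The natural killer identity of the line was checked against marker genes. All 10 natural killer markers, among them NKG7, GZMB, PRF1 and NCAM1, had more than 3 counts in both libraries, and their counts summed to 203396 in the control and 209311 in the PPMX-T003 library. By TPM the highest of them was NKG7, with 3215 and 3445, followed by GZMB with 1850 and 2149. Of the B cell markers, CD79A had 14 and 12 counts and MS4A1 had 0, and the 4 erythroid markers had 0 counts in both libraries. The 4 monocyte markers summed to 24 and 16 counts, among which CSF1R had 22 and 9 and CD14 had 0 and 7. The 6 T cell markers summed to 5169 and 5412 counts, nearly all from TRAC and TRBC1, while CD3D, CD3G and CD5 were at 0. CD3E was not on the list and had at least 1000 summed counts, with a log2 fold change of 0.11.

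The nuclear subunits together took 1.087% of all counts in the control library (95% Clopper-Pearson interval 1.084% to 1.09%) and 1.151% in the PPMX-T003 library (1.148% to 1.154%). The mitochondrially encoded subunits took 0.828% (0.8254% to 0.8306%) and 0.9151% (0.9123% to 0.918%). Both shares were larger in the treated library, and neither pair of intervals overlapped. These intervals, like all those below, cover counting error only and not differences between dishes.

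Levels of different genes were compared as TPM, a scale that allows for transcript length and which the authors rounded to whole numbers. The 81 nuclear subunits that passed the minimum had a median TPM of 214 in the control and 217 in the PPMX-T003 library, with control values from 3 for UQCRHL to 1341 for ATP5F1B, the catalytic beta subunit of ATP synthase. The 13 mitochondrial genes had a median of 1979 and 2179 TPM, with control values from 468 for ND5 to 3373 for ATP8. Summed over genes, the nuclear subunits reached 23590 and 24535 TPM and the mitochondrial ones 23573 and 24510 TPM. The 13 mitochondrial genes thus matched the summed level of the 88 nuclear genes in each library, and 7 of them were among the 100 highest TPM values of the control library, where no nuclear subunit was found.

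**Figure D1:**
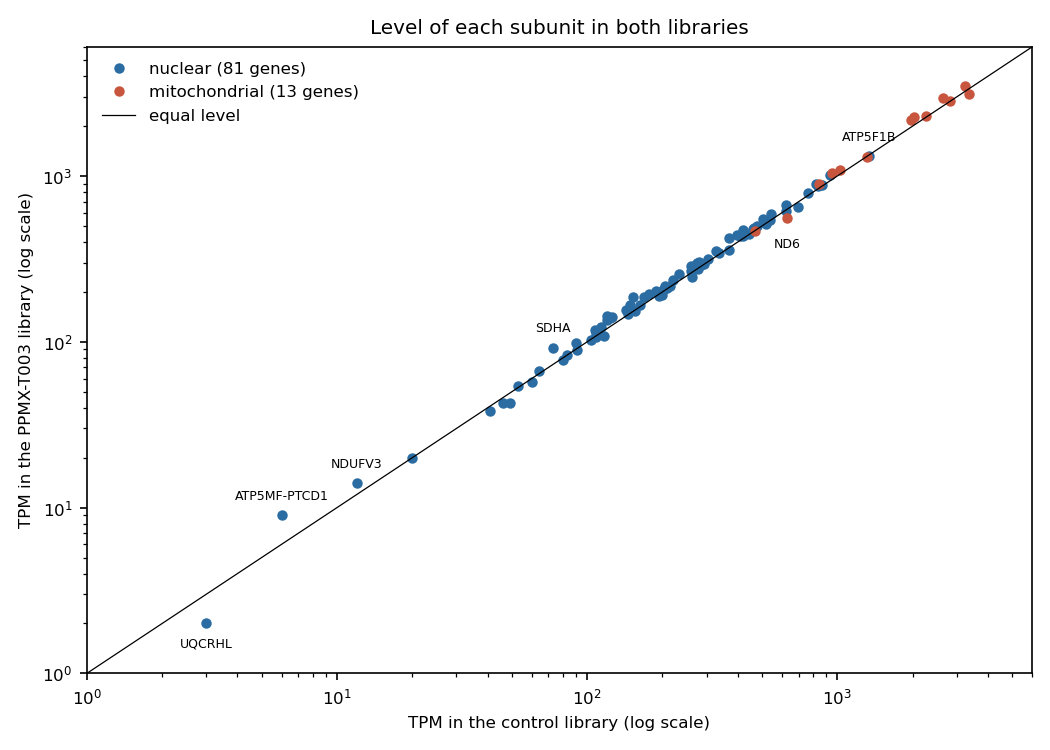
TPM of each of the 94 subunits that passed the minimum, in the control library (x axis, log scale) and the PPMX-T003 library (y axis, log scale). Blue points are nuclear genes and red points mitochondrial genes, and the line marks equal levels. Most points lie close to the line, and ATP5MF-PTCD1 (6 and 9 TPM) and SDHA (73 and 92 TPM) lie farther above it.

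Changes were computed from counts divided by library size (CPM) after TMM scaling of the whole table, as the log2 ratio of the PPMX-T003 to the control library. A gene was called higher or lower when it differed at least 1.1-fold. Of the 81 nuclear subunits, 27 were higher and 1 was lower, against 24.0% higher and 25.2% lower among all 13665 genes tested. Of the 13 mitochondrial subunits, 7 were higher and none was lower. Among the 8359 genes with at least 1000 summed counts, a depth that 80 of the nuclear and all 13 mitochondrial subunits reached, 15.2% were higher and 20.1% lower. No subunit of either genome differed 2-fold, which 1.27% of all genes tested did upwards and 1.38% downwards.

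The median log2 fold change was 0.10 over the nuclear subunits and 0.14 over the mitochondrial ones, beside -0.0020 over all genes tested and -0.0098 over genes with at least 1000 counts. The shift was small and ran through most of the group. Values above 0 were found for 72 of 81 nuclear and 11 of 13 mitochondrial subunits. The counting interval lay above 0 for 58 nuclear subunits and below 0 for 4, while 27.8% of the genes with at least 1000 counts had an interval above 0 and 32.1% below. For the mitochondrial subunits, 11 intervals lay above 0 and 2 below. The mitochondrial median was 0.045 above the nuclear one, and 0.099 and 0.015 above it after the length and GC corrections described below.

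**Figure D2:**
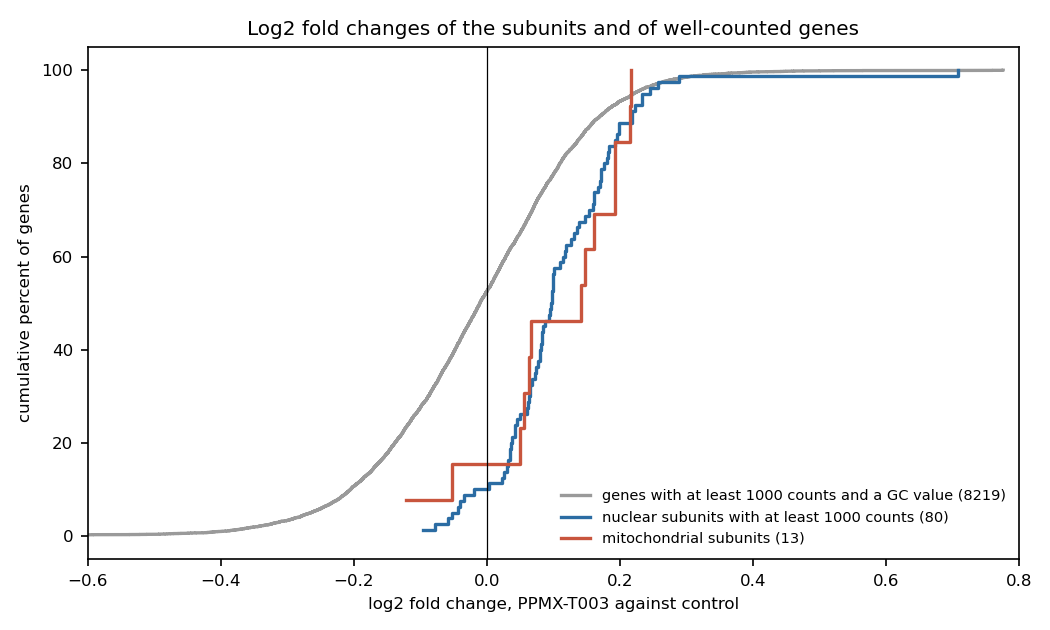
Cumulative percent of genes (y axis) by log2 fold change of PPMX-T003 against control (x axis), for 8219 genes with at least 1000 summed counts and a known GC content (grey), 80 nuclear subunits with at least 1000 counts (blue) and 13 mitochondrial subunits (red). Both subunit curves cross the midpoint to the right of 0, at about the medians of 0.10 and 0.14, and the grey curve crosses it near 0.

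In complex I, the NADH dehydrogenase by which electrons enter the chain, all 37 nuclear subunits passed the minimum, with a median log2 fold change of 0.098. Of these, 13 were higher and none was lower, beside 24.0% and 25.2% of all genes tested. After the length and GC correction 6 were higher, beside 18.2% of all genes. NDUFA3, a small accessory subunit, had 49.3 CPM in the control and 60.3 CPM in the PPMX-T003 library, a log2 fold change of 0.29 (95% counting interval 0.21 to 0.37). NDUFV3, an accessory subunit of the NADH-oxidizing arm, had 26.4 and 31.3 CPM, a log2 fold change of 0.25 (0.13 to 0.36). These were the highest nuclear values of the complex before correction for length and GC content. After the corrections described below, NDUFA3 was at 0.14 and 0.15 and NDUFV3 at 0.27 and 0.29. At the other end, NDUFA5, an accessory subunit of the peripheral arm, had 118.8 and 111.2 CPM, a log2 fold change of -0.095 (-0.15 to -0.039). NDUFS1, the largest of the core subunits and the carrier of several iron-sulfur clusters, had 237.8 and 228.4 CPM, a log2 fold change of -0.058 (-0.097 to -0.019). The 7 nuclear core subunits, which hold the redox centers or the quinone site, had a median of 0.097 and the 30 accessory subunits one of 0.099. The difference of these medians, core minus accessory, was -0.0020, and -0.041 and -0.023 after the length and GC corrections.

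Complex II, succinate dehydrogenase, links the citric acid cycle to the chain. None of its 4 subunits was called in either direction, beside 24.0% higher and 25.2% lower among all genes tested. Their median was 0.052. It was the lowest nuclear median before and after the length and GC correction, and with longest transcripts complex I was lower, at 0.019. SDHA, the flavin-carrying catalytic subunit, had 120.5 and 126.0 CPM, a log2 fold change of 0.065 (0.011 to 0.12). SDHB, which holds the iron-sulfur clusters, had 152.8 and 161.6 CPM, a log2 fold change of 0.081 (0.033 to 0.13). The membrane anchors SDHC and SDHD hold a heme between them. SDHC had 115.7 and 109.7 CPM, a log2 fold change of -0.078 (-0.13 to -0.021), and SDHD had 167.4 and 171.9 CPM, a log2 fold change of 0.038 (-0.0075 to 0.085). The anchors thus lay on opposite sides of 0 before correction, and only the interval of SDHD held 0. After the length and GC correction SDHC was at -0.13 and SDHD at 0.031. With longest transcripts both were above 0, at 0.087 and 0.0455. The TPM of SDHA moved further than its counts, from 73 to 92, and TPM depends also on which transcripts of a gene the reads are assigned to.

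In complex III, which passes electrons from ubiquinol to cytochrome c, the 10 nuclear genes tested had a median of 0.088, with 4 higher and 1 lower, beside 24.0% and 25.2% of all genes. After the length and GC correction 2 were higher, beside 18.2% of all genes. UQCRQ had 83.7 and 98.4 CPM, a log2 fold change of 0.23 (0.17 to 0.30), and UQCR11 had 71.0 and 83.5 CPM, a log2 fold change of 0.23 (0.16 to 0.30). Both are small accessory subunits without a redox group. After the length and GC corrections described below, UQCRQ was at 0.1662 and 0.1369 and UQCR11 at 0.1350 and 0.1355. UQCRQ kept its call with the first correction only, and UQCR11 with neither. UQCRC2, a core protein in the matrix arm, had 170.0 and 170.4 CPM, a log2 fold change of 0.0035 (-0.042 to 0.049). UQCRH, the acidic hinge protein near the cytochrome c site, had 227.6 and 255.5 CPM, a log2 fold change of 0.17 (0.13 to 0.21). The 1 lower gene was its near-identical intronless copy UQCRHL, which had 33 and 26 counts, a log2 fold change of -0.21 (-1.03 to 0.56). Reads of UQCRHL cannot be told apart with certainty from those of UQCRH, and its interval covers changes in both directions.

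In complex IV, cytochrome c oxidase, 12 of 18 nuclear genes passed the minimum and had a median of 0.11, with 5 higher and none lower, beside 24.0% and 25.2% of all genes. After the length and GC correction 2 were higher, beside 18.2% of all genes. The median was the highest of the nuclear complexes before the length and GC correction, after which it was 0.083, below complex III at 0.13 and complex V at 0.11. COX5B, a zinc-binding accessory subunit, had 113.3 and 135.5 CPM, a log2 fold change of 0.26 (0.20 to 0.31). COX7B had 155.6 and 176.6 CPM, a log2 fold change of 0.18 (0.14 to 0.23). The lowest values were those of NDUFA4, once assigned to complex I, with 106.2 and 102.4 CPM and a log2 fold change of -0.053 (-0.11 to 0.0062), and of COX7A2L, a factor that joins complexes III and IV, with 99.1 and 101.6 CPM and 0.035 (-0.025 to 0.095). After the length and GC corrections described below, COX5B was at 0.21 and 0.13 and lost its call with the second. COX7B was at 0.22 and 0.23 and kept it.

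Several complex IV subunits exist as isoforms that differ between tissues. The forms COX4I2, COX6A2, COX6B2, COX7A1, COX7B2 and COX8C, found mainly in lung, heart, skeletal muscle or testis, each had 0 counts in both libraries. With a floor of 3 counts, this allows at most 0.0641 CPM in the control and 0.0695 CPM in the PPMX-T003 library. Their widely expressed counterparts carried all the reads of each pair. COX4I1 had 228.4 and 254.1 CPM, with a log2 fold change of 0.15 (0.12 to 0.19). COX6A1 had 196.9 and 221.6 CPM, with 0.17 (0.13 to 0.21), and COX6B1 had 166.1 and 178.1 CPM, with 0.10 (0.056 to 0.15). These forms all had intervals above 0, and so did COX8A, which had 184.14 and 199.97 CPM and a log2 fold change of 0.12 (0.076 to 0.16). COX7A2 had 99.4 and 102.6 CPM, with 0.045 (-0.014 to 0.11), and was the exception. After the length and GC corrections described below, COX4I1 was at 0.089 and 0.090 and COX6A1 at 0.099 and 0.011, and neither was called. COX6B1 was then at 0.0024 and -0.064, and COX8A at -0.0032 and -0.089. ATP5MGL, a copy of the complex V gene ATP5MG, was the remaining member with 0 counts in both libraries.

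In complex V, ATP synthase, 18 of 19 nuclear genes passed the minimum, with a median of 0.096. Of these, 5 were higher and none lower, beside 24.0% and 25.2% of all genes tested. After the length and GC correction 5 were higher, beside 18.2% of all genes. The median was then 0.11, and 0.036 with longest transcripts. The alpha and beta subunits of the F1 head, which together form the catalytic sites, had the lowest log2 fold changes of the nuclear part of the complex before correction for length and GC content. ATP5F1A had 624.9 and 607.4 CPM, a log2 fold change of -0.041 (-0.065 to -0.017), and ATP5F1B had 1050.6 and 1074 CPM, a log2 fold change of 0.032 (0.013 to 0.050) that was -0.022 with longest transcripts and -0.023 by TPM. The c ring that turns with the passage of protons is made of identical mature proteins from 3 genes. ATP5MC1 had 140.4 and 147.7 CPM, a log2 fold change of 0.074 (0.024 to 0.12), ATP5MC2 had 44.4 and 51.8 CPM, a log2 fold change of 0.22 (0.14 to 0.31), and ATP5MC3 had 385.5 and 424.2 CPM, a log2 fold change of 0.14 (0.11 to 0.17). After the corrections ATP5MC2 was at 0.1363 and 0.1267 and was called with neither. ATP5MC3 was at 0.1341 and 0.2468 and was called with the second only. Per length, the control levels of the 3 genes were 532 TPM for ATP5MC1, 328 TPM for ATP5MC3 and 149 TPM for ATP5MC2. The 4 genes of the peripheral stalk, which holds the head still, lay between 0.062 and 0.10 and none was called. Their median of 0.071 became 0.088, with 1 higher, after the length and GC correction and -0.014 with longest transcripts.

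The largest log2 fold change of any member belonged to ATP5MF-PTCD1, a readthrough gene that joins a small membrane subunit of ATP synthase to PTCD1, a neighbouring gene for an RNA-binding protein of mitochondria. It had 650 counts in the control and 981 in the PPMX-T003 library, a log2 fold change of 0.71 (0.57 to 0.86). ATP5MF alone had 8092 and 7902 counts, a log2 fold change of 0.083 (0.038 to 0.13), and PTCD1 alone had 2261 and 1846, a log2 fold change of -0.18 (-0.26 to -0.086). The 3 genes share exons, so the division of reads among them is an estimate. Their summed counts were 11003 and 10729, a log2 fold change of 0.081 (0.042 to 0.12), close to that of ATP5MF.

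**Figure D3:**
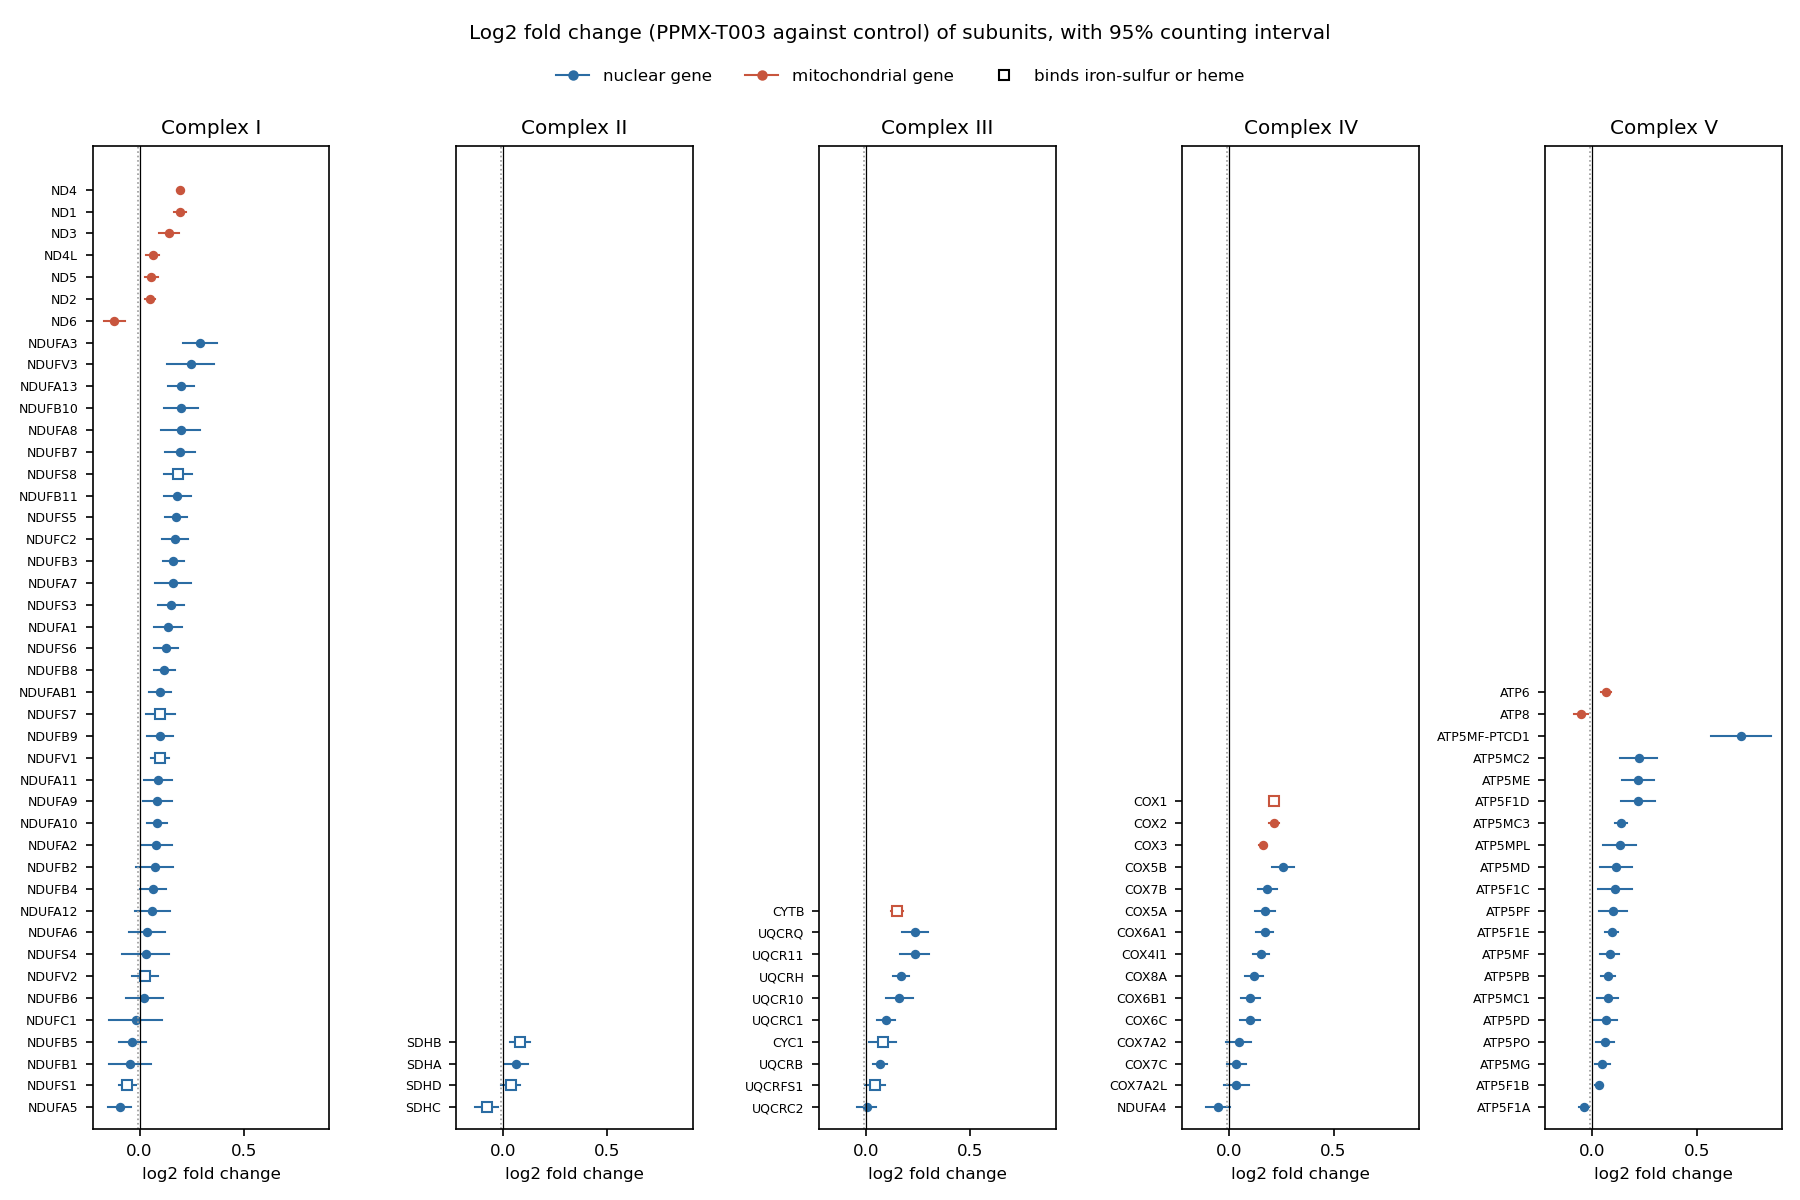
Log2 fold change of PPMX-T003 against control (x axis) of subunits that passed the minimum, with UQCRHL left out, in 1 panel per complex, with 95% counting intervals as lines. Blue marks nuclear and red mitochondrial genes, open squares mark subunits that bind an iron-sulfur cluster or heme, and the dotted line is the median of genes with at least 1000 counts. Most points lie to the right of 0 in every panel, and ATP5MF-PTCD1 at 0.71 stands apart.

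The DNA around the start sites of the nuclear members was read because many OXPHOS genes share regulators. RefSeq promoter windows of GRCh38.p14, which run from 250 bases before to 50 after a start, were found for 70 of 88 nuclear members, in 83 windows. Letter patterns of factors known to act on OXPHOS genes were searched on both strands. CGCANGCG, the core letters of the NRF1 motif, was in 33.7% of members' windows, in 10.0% of all 35116 windows and in 19.2% of the windows of genes with at least 1000 counts. CCGGAAGT, an ETS motif bound by GABPA, was in 14.5%, 4.14% and 9.56%, and AAGATGGC, a YY1 motif, was in 15.7%, 2.89% and 6.20%. These patterns were thus more frequent among members' windows than among those of well-counted genes. GGGCGG, an SP1 motif, was in 60.2% of members' windows, in 15786 of the 35116 windows and in 67.5% of those of well-counted genes. TCAAGGTCA, an estrogen-related receptor motif, was in 1 member window, in 0.353% of all windows and in 0.130% of those of well-counted genes. Overlapping matches were allowed, a window was counted once per pattern, and a match is a description of the letters and not of binding. The 24 windows of members called higher held the NRF1 letters in 29.2%, the GABPA letters in 20.8% and the YY1 letters in 8.33% (2 windows), and the 55 windows of the other nuclear members tested held them in 36.4%, in 12.7% and in 11 windows.

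To show such stretches, the member with the highest log2 fold change in each complex was taken among those with 1 window and no shared exons, and the bases before the first annotated exon were read. Of these 5 stretches, 3 held NRF1 or GABPA letters. The stretches lie at chr19:54102605-54102727 on the plus strand (NDUFA3), chr2:97645812-97646039 on the plus strand (COX5B) and chr4:674339-674526 on the minus strand (ATP5ME, a small membrane subunit of ATP synthase with a log2 fold change of 0.22). They are written 5′ to 3′ along the gene, with NRF1 letters in capitals for NDUFA3 and ATP5ME and GABPA letters in capitals for COX5B.
NDUFA3: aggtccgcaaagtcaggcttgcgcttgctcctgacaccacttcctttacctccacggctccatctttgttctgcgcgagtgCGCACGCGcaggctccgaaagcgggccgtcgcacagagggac
COX5B: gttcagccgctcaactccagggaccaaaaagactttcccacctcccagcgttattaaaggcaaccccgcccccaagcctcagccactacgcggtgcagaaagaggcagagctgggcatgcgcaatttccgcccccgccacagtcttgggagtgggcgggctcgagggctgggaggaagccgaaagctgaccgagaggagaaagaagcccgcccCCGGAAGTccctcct
ATP5ME: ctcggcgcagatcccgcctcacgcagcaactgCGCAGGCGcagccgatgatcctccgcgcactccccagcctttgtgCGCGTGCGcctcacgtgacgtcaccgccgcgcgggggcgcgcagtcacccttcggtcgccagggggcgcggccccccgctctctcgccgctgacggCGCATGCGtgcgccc
The stretches of SDHB and UQCRQ held none of the NRF1, GABPA, YY1 or estrogen-related receptor letters. The log2 fold change of ATP5ME became 0.11 and 0.0088 after the length and GC corrections described below.

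Mitochondrial DNA is transcribed from both strands into long precursors, which are cut at the tRNA genes that lie between most reading frames, and 12 of the 13 protein genes are encoded on the same strand. In complex IV, COX1, the subunit with the hemes of the oxygen-binding site, had 1817 CPM in the control and 2111 CPM in the PPMX-T003 library, a log2 fold change of 0.22 (0.20 to 0.23). COX2, which receives electrons from cytochrome c, had 618.4 and 718.0 CPM, a log2 fold change of 0.22 (0.19 to 0.24). COX3, which has no redox center, had 1131 and 1264 CPM, a log2 fold change of 0.16 (0.14 to 0.18). All 3 were called higher, and so was CYTB, the cytochrome b of complex III, with 428.0 and 474.1 CPM and a log2 fold change of 0.15 (0.12 to 0.18). Among all genes tested, 24.0% were higher. With longest transcripts COX2 at 0.13, COX3 at 0.079 and CYTB at 0.096 lost the call, and COX1 at 0.19 kept it. By TPM, COX3 at 0.11 and CYTB at 0.094 were not called either.

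The 7 complex I genes, whose products form the membrane arm that pumps protons, were less uniform, with a median of 0.063. Of these, 3 were called higher, beside 24.0% of all genes tested. The median was 0.11 after the length and GC correction, 0.047 with longest transcripts and 0.0087 by TPM. With longest transcripts ND1 at 0.12 and ND3 at 0.047 lost the call, and ND4 at 0.17 kept it. ND1 had 405.6 and 463.7 CPM, a log2 fold change of 0.19 (0.16 to 0.22), and ND4 had 1214 and 1388 CPM, a log2 fold change of 0.19 (0.18 to 0.21). ND3 had 157.9 and 174.2 CPM, a log2 fold change of 0.14 (0.095 to 0.19). The other genes of this complex were nearer 0 or below it. ND2 had 608.1 and 629.3 CPM, a log2 fold change of 0.049 (0.025 to 0.073), and ND5 had 377.2 and 392.1 CPM, a log2 fold change of 0.056 (0.025 to 0.086). ND6 had 146.7 and 134.9 CPM, a log2 fold change of -0.12 (-0.17 to -0.071).

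ND6, at chrM:14149-14673, is the only protein gene encoded on the opposite strand, and it had the lowest log2 fold change of the 13. It was below 0 under every scaling tried. Whether reads were counted by strand is not given in the sources used here, so reads of the opposite strand within ND6 cannot be told apart from its own. The summed counts of the other 12 genes were 380356 and 389320, a log2 fold change of 0.15 (0.14 to 0.16). The 8 tRNA genes of the strand of ND6 summed to 1333 and 1272 counts, a log2 fold change of 0.050 (-0.062 to 0.16), and the 14 tRNA genes of the other strand to 765 and 713, a log2 fold change of 0.016 (-0.13 to 0.16). Neither tRNA group could be told from no change at this depth, and selection of polyadenylated RNA keeps few tRNA reads. The ribosomal RNAs, transcribed ahead of the protein genes, had 212 and 212 TPM for RNR1 and 463 and 485 TPM for RNR2, below all 13 mRNAs in the control, while RNR2 was above ND5 at 468 TPM in the PPMX-T003 library. Their log2 fold changes were 0.055 (-0.0081 to 0.12) and 0.12 (0.091 to 0.16). Polyadenylated RNA was selected, so the TPM of the ribosomal RNAs beside the mRNAs need not reflect their levels in the cells.

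In complex V, ATP8 and ATP6 are translated from 1 mRNA on which their reading frames overlap by 46 bases, and ND4L and ND4 of complex I are arranged in the same way with 7 shared bases. The overlaps are shown because reads within them belong to both genes of a pair. They lie at chrM:8517-8582 and chrM:10750-10776 of GENCODE 29, with 10 bases on either side, and the capitals mark the start codon of the downstream frame and then the stop codon of the upstream frame.
ATP8 and ATP6: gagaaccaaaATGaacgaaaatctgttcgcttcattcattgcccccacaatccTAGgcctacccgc
ND4L and ND4: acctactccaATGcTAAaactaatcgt
ATP8 had 310.9 and 299.8 CPM, a log2 fold change of -0.053 (-0.087 to -0.018), while ATP6 had 687.5 and 719.7 CPM, a log2 fold change of 0.066 (0.044 to 0.089). ND4L had 371.9 and 388.6 CPM, a log2 fold change of 0.063 (0.033 to 0.094), below the 0.19 of ND4. With longest transcripts ATP6 turned to -0.0084 and ND4L to -0.065. In both pairs the short upstream frame had the lower log2 fold change, and the intervals within a pair did not overlap, although the genes of a pair share an mRNA. The TPM ratio of ATP8 to ATP6 was 1.49 in the control and 1.37 in the PPMX-T003 library, and that of ND4L to ND4 was 1.42 and 1.3. Summed over each pair, the log2 fold change was 0.030 (0.011 to 0.049) for ATP8 with ATP6 and 0.16 (0.15 to 0.18) for ND4L with ND4.

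**Figure D4:**
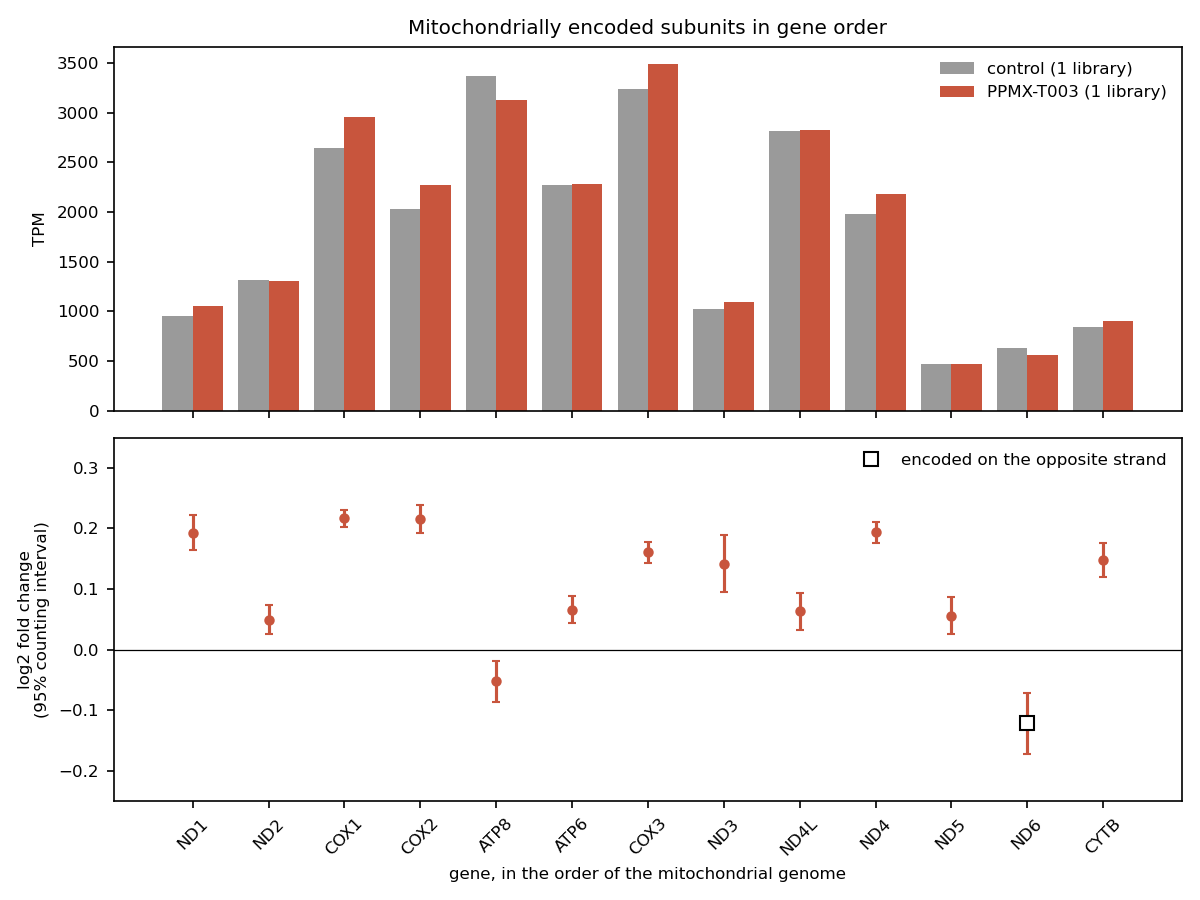
TPM of the 13 mitochondrial genes in the control (grey bars) and PPMX-T003 (red bars) libraries, above their log2 fold changes with 95% counting intervals, in the order of the mitochondrial genome. The open square marks ND6 on the opposite strand. ND6 and ATP8 lie below 0, and COX1 and COX2 are highest at 0.22.

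Subunits that bind iron were compared with the rest because transferrin receptor 1 takes up iron. The 10 nuclear subunits with an iron-sulfur cluster or heme had a median log2 fold change of 0.062, with 1 higher and none lower, beside 0.10 for the 71 other nuclear subunits tested, of which 26 were higher and 1 was lower. The difference of the medians was -0.038, and it was -0.051 and -0.029 after the same corrections. The iron-binding subunits called higher made up 10% of their group, beside 36.6% of the others and 24.0% of all genes tested. Among genes with at least 1000 counts, a depth that all 10 reached, 15.2% were higher. After the length and GC correction none of the 10 was higher and 15 of the 71 others were, beside 18.2% of all genes. Of 8219 genes with at least 1000 counts, 890 were then higher.

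Among the 7 iron-sulfur subunits the median was 0.081, which became 0.023 and 0.0039 after the corrections and 0.025 by TPM. Of those in complex I, NDUFS8, which passes electrons on to NDUFS7, had 76.5 and 86.9 CPM, a log2 fold change of 0.18 (0.12 to 0.25), and was the gene called higher. NDUFS7, which carries the last cluster before the quinone, had 74.1 and 79.4 CPM, a log2 fold change of 0.099 (0.031 to 0.17). NDUFV1, which also binds the flavin that takes electrons from NADH, had 185.7 and 198.6 CPM, a log2 fold change of 0.097 (0.053 to 0.14). These intervals all lay above 0 before correction for length and GC content. After the corrections NDUFS8 was at 0.023 and -0.028, NDUFS7 at -0.067 and -0.028 and NDUFV1 at -0.029 and 0.0039. NDUFV2 had 88.0 and 89.6 CPM, a log2 fold change of 0.026 (-0.038 to 0.089), and the Rieske protein UQCRFS1 of complex III had 148.1 and 152.6 CPM, a log2 fold change of 0.042 (-0.0064 to 0.091). With SDHB above 0 and NDUFS1 below it, 4 of the 7 intervals lay above 0, 1 lay below and 2 held 0.

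The 3 nuclear heme subunits had a median of 0.038, which became -0.033 and 0.045 after the length and GC corrections, so that its direction depended on them. CYC1, the cytochrome c1 of complex III, had 87.3 and 92.4 CPM, a log2 fold change of 0.080 (0.017 to 0.14) that became -0.033 and -0.084, and the others are SDHC and SDHD. The mitochondrial heme subunits COX1 and CYTB, at 0.22 and 0.15, lay higher than all 3 of them, and the 11 mitochondrial subunits without heme had a median of 0.066. By median, iron-binding subunits thus lay below the others in the nuclear group and above them in the mitochondrial group of 2. Of the single genes, CYTB lay below COX2, ND4, ND1 and COX3, which bind no heme, and NDUFS8 at 0.18 lay above the median of the other nuclear subunits.

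The log2 fold change of a gene moved with the GC content of its transcripts across the whole table. Over 8219 genes with at least 1000 counts, Pearson's r with GC content was 0.489 and Spearman's rho 0.532, and over 79 nuclear subunits without UQCRHL and ATP5MF-PTCD1 they were 0.535 and 0.547. These are correlations across genes of the same 2 libraries, and genes are not independent replicates. Below 45% GC, the 20 nuclear subunits had a median of 0.062 and well-counted genes one of -0.094. From 45 to 55% GC the medians were 0.082 for 40 subunits and -0.0039 for well-counted genes, and from 55% GC they were 0.18 for 21 subunits and 0.090. The nuclear subunits thus had the higher median in each of the 3 ranges.

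A robust regression on transcript length and GC content, fitted over 9949 genes, was used to take this relation out. The nuclear median became 0.066 and the mitochondrial one 0.17, with 15 of 81 nuclear and 7 of 13 mitochondrial subunits higher, beside 18.2% of all genes after the same correction. When length and GC content were instead taken from a gene's longest transcript, a choice made after seeing the data, the medians became 0.035 and 0.050, with 9 and 2 subunits higher, beside 17.3% of all genes. The nuclear share of higher calls was thus about that of all genes with the first correction and below it with longest transcripts. All genes tested include many with few counts. Of 8219 genes with at least 1000 counts, a depth that nearly all nuclear subunits reached, 890 were higher after the first correction. That is a smaller share than the 15 of 81 nuclear subunits. The size of both medians therefore depended on this correction, and their sign did not. The direction of single members did depend on it. Of 72 nuclear subunits above 0, 7 were below 0 after the first correction and 24 after the longest-transcript one, and of 9 below 0, 4 and 5 were then above. Among those that turned downwards with both were COX8A, at -0.0032 and -0.089, NDUFS7, at -0.067 and -0.028, and ATP5MC1, at -0.0072 and -0.090. NDUFV1 was at -0.029 and 0.0039, and COX6B1 at 0.0024 and -0.064. Of 11 mitochondrial subunits above 0, none turned with the first correction and 2 with the longest-transcript one. NDUFA5, with 34.4% GC, went from -0.095 to 0.044 and 0.061, and NDUFS1 from -0.058 to 0.016 and 0.10. SDHC went from -0.078 to -0.13 and 0.087, and ATP5F1A from -0.041 to -0.045 and 0.035, whereas ND6 stayed below 0 at -0.099 and -0.20 and ATP8 at -0.041 and -0.18.

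**Figure D5:**
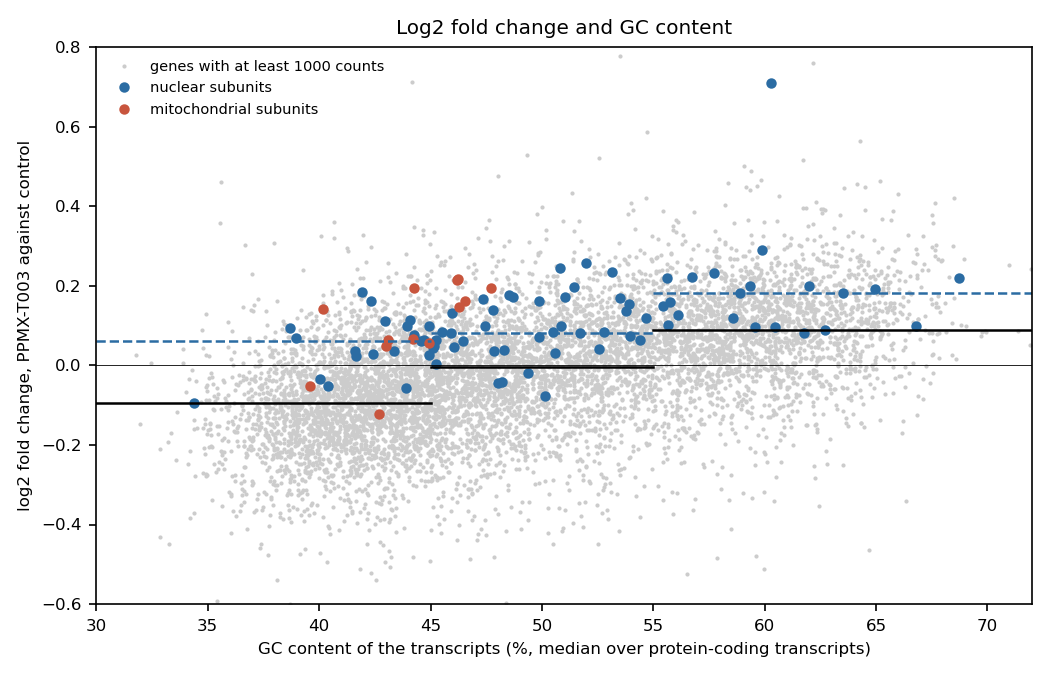
Log2 fold change (y axis) against GC content of the transcripts (x axis, %) for genes with at least 1000 counts (grey), nuclear subunits (blue) and mitochondrial subunits (red). Black lines are medians of well-counted genes and dashed blue lines medians of nuclear subunits, below 45%, from 45 to 55% and from 55% GC. The blue line lies above the black one in each range, at 0.062, 0.082 and 0.18.

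Proteins that assemble the complexes are not part of them. Over 55 assembly factors the median log2 fold change was 0.017, with 8 higher and 4 lower, beside 24.0% and 25.2% of all genes tested, and 12 were higher after the length and GC correction, beside 18.2% of all genes. For complex I the 16 factors had a median of 0.079, from NDUFAF7, a methyltransferase, with 1160 and 822 counts and -0.38 (-0.51 to -0.25), to ECSIT with 1901 and 2108 counts and 0.27 (0.18 to 0.36). TMEM186 was the next lowest at -0.093 (-0.25 to 0.059), and NDUFAF8 the next highest at 0.24 (0.11 to 0.37). After the length and GC corrections NDUFAF8 was at 0.12 and 0.03 and was not called. ECSIT, which shares exons with ZNF653, was then at 0.14 and 0.13, and only the first was a call. The complex I factors were thus spread more widely than the nuclear subunits they serve, at lower counts.

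The 4 factors of complex II had a median of 0.022, and their intervals all held 0. In that group SDHAF3 had 1610 and 1456 counts, SDHAF1 682 and 621, SDHAF2 2377 and 2289, and SDHAF4 161 and 171. The 6 factors of complex III had a median of 0.018, which turned to -0.0016 and -0.0041 after the corrections. They ran from LYRM7 at -0.069 (-0.14 to -0.0029) and UQCC1 at -0.049 (-0.099 to 0.0022) to BCS1L, which inserts the Rieske protein, at 0.055 (-0.021 to 0.13) and UQCC2 at 0.14 (0.018 to 0.25). LYRM7 turned to 0.0086 and 0.080 after the corrections, and BCS1L to -0.012 and -0.019. The 24 factors of complex IV had a median of 0.012, with 2 higher and 2 lower, beside 24.0% and 25.2% of all genes tested. After the length and GC correction 5 were higher and 3 lower, beside 18.2% and 19.3% of all genes. COX19, a copper-handling protein whose gene shares exons with ADAP1, had 1135 and 864 counts, a log2 fold change of -0.28 (-0.41 to -0.15). COX10, which makes the heme A precursor, had 1504 and 1217, a log2 fold change of -0.19 (-0.30 to -0.078). SURF1, linked to heme insertion, had 610 and 668, a log2 fold change of 0.25 (0.088 to 0.41), and COA5 had 953 and 988, a log2 fold change of 0.17 (0.039 to 0.30).

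The 5 complex V factors had a median of 0.015, whose direction turned to -0.058 and -0.053 after the corrections and -0.15 by TPM. FMC1, which shares exons with LUC7L2 and a readthrough gene, had 544 and 377 counts, a log2 fold change of -0.41 (-0.61 to -0.22), and TMEM70 was at -0.10 (-0.19 to -0.022). ATP5IF1, the inhibitor that stops ATP synthase from running backwards, had 5482 and 5796 counts, a log2 fold change of 0.20 (0.14 to 0.25), and ATPAF2 was at 0.051 (-0.17 to 0.28). Cytochrome c carries electrons from complex III to IV. Its gene CYCS had 20727 and 18613 counts, a log2 fold change of -0.038 (-0.067 to -0.0093), and HCCS, which attaches its heme, had 1930 and 1765, a log2 fold change of -0.012 (-0.11 to 0.082). The value of CYCS was 0.0002 and 0.044 after the length and GC corrections, so its direction depended on them.

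Nuclear genes that run mitochondrial transcription and RNA processing were spread around 0, with a median of -0.012 over 23 genes, 6 higher and 7 lower, shares close to the 24.0% and 25.2% of all genes tested. After the length and GC correction 4 were higher and 3 lower, beside 18.2% and 19.3% of all genes. FASTKD1 had 6575 and 5236 counts, a log2 fold change of -0.21 (-0.26 to -0.16), and PNPT1, an RNA-degrading enzyme of mitochondria, had 5453 and 4345, a log2 fold change of -0.21 (-0.27 to -0.15). HSD17B10, a part of the mitochondrial tRNA-processing enzyme, had 6748 and 7254, a log2 fold change of 0.22 (0.17 to 0.27), and TEFM, an elongation factor, had 512 and 530, a log2 fold change of 0.17 (-0.011 to 0.35). After the corrections FASTKD1 was at -0.091 and -0.12 and HSD17B10 at 0.135 and 0.070, and neither was called. The mitochondrial mRNAs were therefore higher in a library where this list as a group was not.

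Of 9 nuclear regulators of OXPHOS genes, 8 were tested, with a median of -0.12, none higher and 4 lower, beside 24.0% higher and 25.2% lower among all genes tested. SP1 had 5360 and 4240 counts, a log2 fold change of -0.22 (-0.28 to -0.16), and the coactivator PPARGC1B had 2811 and 2227, a log2 fold change of -0.22 (-0.30 to -0.14). GABPA and its partner GABPB1, the others called lower and named after their values were seen, were at -0.22 (-0.31 to -0.12) and -0.15 (-0.22 to -0.082). ESRRA was at 0.076 (0.0051 to 0.15) and PPRC1 at 0.10 (0.047 to 0.16). NRF1 and YY1, whose letters were searched above, were at -0.095 (-0.20 to 0.011) and 0.020 (-0.026 to 0.065), and neither was called. PPARGC1A had 0 counts in both libraries. The regulators' median was thus on the other side of 0 from that of the subunits, and it moved to -0.059 after the length and GC correction. After that correction 2 genes were still lower, beside 19.3% of all genes, and with longest transcripts none was, beside 18.3%. GABPA was at -0.040 after the first correction and GABPB1 at -0.10, and ESRRA turned to -0.050 and -0.053.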

How the data were processed

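Per the submitters' processing notes, the authors trimmed reads with Trimmomatic 0.38, mapped them to hg38 with HISAT2 2.2.0, assembled and counted with StringTie 2.1.3b and listed edgeR 3.17. The deposited counts have commas between digits and were recorded under the unit other, although the design named counts. The deposited TPM and FPKM were rounded by the authors to whole numbers and were treated as a score. FPKM was not compared here, and 0 columns were left without a sample. Columns named 0h and 6h were taken as control and PPMX-T003. If the 0h dish was harvested before the last 6 h, the antibody and 6 h of culture cannot be told apart.

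TMM factors (trimming 30% by ratio and 5% by level) were 1.0007 for the control and 0.9993 for PPMX-T003. Log2 CPM had a prior count of 2. With 1 library per condition no test was made, and counting error is given by 95% Clopper-Pearson intervals of how a gene's reads divide between the libraries, put on the log2 scale. It does not cover the division of shared reads by StringTie. The kit keeps strand, and whether strand was used in counting is not given in the sources used here. Transcript lengths, GC content and exon sharing came from GENCODE 29, which gave values for all 94 members tested and 87.5% of all genes tested. Gene positions came from RefSeq (GRCh38.p14).

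Every mitochondrial and iron-binding subunit was named, with the 2 highest and 2 lowest nuclear members of each complex and of each other list (at least 100 counts), isoform families and members below the minimum. The members and lists were chosen with earlier results of these data known. Python 3.11.15, numpy 2.4.6, pandas 2.3.3, scipy 1.17.1, statsmodels 0.14.6 and matplotlib 3.10.9 were used. The scaling, log2 fold changes and counting intervals were tested on simulated data, and the length and GC corrections and the motif search were not. Values of some genes are not reported here, and 1 complex I member is not drawn in the figure by complex.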

Additional observations from a re-analysis of the deposited data

How the results depend on the processing

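No paired analysis was possible because the study has 1 library per condition, and leaving a library out was not possible. Beside the 11 alternatives planned, 2 were added after seeing the data, the longest-transcript correction and leaving out UQCRHL and ATP5MF-PTCD1. Of the comparisons of genomes and cofactors, 67 of 78 stayed within the tolerance, of those of complexes 94 of 103, and of single genes 591 of 707. The tolerance was the median half-width of a member's counting interval, which is wide for a median of many genes, and a ratio of 1.5 for counts of genes.

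With the deposited TPM, which carries an offset of -0.054 over 6112 genes, the nuclear median was 0.046 and the mitochondrial one 0.087, 15 nuclear and 4 mitochondrial subunits were higher, and the medians were 0.0060 iron-binding and 0.052 other nuclear. The medians were 0.047, 0.0048, 0.039 and 0.032 for nuclear complexes I, II, III and V and 0.0087, 0.16 and -0.047 for mitochondrial complexes I, IV and V. Over all genes, 12.8% were then higher and 26.4% lower, beside 24.0% and 25.2% with counts.

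With the length and GC correction 15 nuclear subunits were higher (18.2% of all genes), the medians were 0.066 nuclear, 0.020 iron-binding and 0.059 nuclear complex I, and the mitochondrial complex I median was 0.11. With longest transcripts the medians were 0.035 nuclear, 0.050 mitochondrial, 0.0081 iron-binding, 0.037 other nuclear, 0.019 nuclear complex I, 0.036 nuclear complex V, 0.13 mitochondrial complex IV and -0.095 mitochondrial complex V, with 9 nuclear and 2 mitochondrial subunits higher (17.3% of all genes). NDUFS8 then changed direction, from 0.18 to -0.028. Leaving out members that share exons leaves no mitochondrial complex V value.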
